A study of Mus musculus with 3 samples.

Results

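Fibroblast growth factor (FGF) ligands, their receptors and the feedback genes that FGF signaling switches on were compared across palatal fusion. The set was defined by gene symbol: every numbered FGF, *Fgfr1* to *Fgfr4*, *Fgfrl1*, the Sproutys (*Spry*), the Spreds (*Spred*), the ETS factors *Etv1*, *Etv4* and *Etv5*, and the phosphatase *Dusp6*. Of the 18193 genes with a probe set that names 1 gene, 37 belonged to the set, with 84 probe sets. These comprised 22 numbered FGFs (18 secreted ligands and 4 intracellular FGFs), 5 receptors and 10 feedback and ETS genes. *Etv1* had no probe set of its own and is described apart.

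The tissue came from maxillae of ICR fetuses at E14, labelled female, which were grown in suspension organ culture. A single Affymetrix whole-genome mouse array was hybridized per stage. Explants had been cultured for 5 h when the shelves were still apart (before fusion), for 24 h when a seam joined them (during fusion) and for 60 h when the seam was gone (after fusion). The piece dissected was the edge of the shelf at the first stage and midline tissue at the later ones, so stage, hours in culture and piece of tissue changed together and cannot be told apart. No agent or mutant was involved on these 3 arrays. Several samples were collected per stage, and whether their RNA was pooled for an array is not given in the sources used here. Stages could not be tested against each other, since each has 1 array, and the ratios below compare these arrays.

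FGFs bind receptor tyrosine kinases together with heparan sulfate, and the receptors activate the Ras-ERK cascade through the adaptor Frs2. The cascade induces ETS factors of the Pea3 group and its own inhibitors: Sproutys and Spreds act on Ras-ERK signaling, and Dusp6 dephosphorylates ERK. In the mouse palate, FGF10 from the mesenchyme acts on FGFR2 in the epithelium and is tied to the expression of *Shh* there, and loss of *Fgf10*, *Fgfr2* or *Spry2* function leads to cleft palate. The same set of feedback genes is widely used as a transcriptional readout of FGF activity, although other receptor tyrosine kinases also induce them.

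Values are MAS5 signals, a linear measure of brightness, scaled here to one trimmed mean, and the brightest probe set stands for each gene. A background floor was read on each array from 81 probe sets of olfactory, vomeronasal and taste receptor genes (19.4 before, 13.3 during and 14.7 after fusion). A signal under the floor was raised to it and its ratio is then a bound, written "at least". No ratio is given where both signals lay under the floor. The same holds where the only signal above its floor did not exceed the other array's floor. The floor was highest before fusion. *Fgf3*, *Fgf14*, *Fgf16*, *Fgf20* and *Fgf22* were brighter during than before fusion and above the floor during it, but have no ratio between these stages. Such genes enter no count or median of ratios. A ratio was counted when it passed 2-fold. Spread could be measured only among probe sets for the same gene, whose log2 ratios had an SD of 0.37 during over before, 0.46 after over before and 0.44 after over during fusion, or 0.23, 0.31 and 0.26 where all signals were over 100. Signals of different genes were not compared with each other, since probes differ in brightness.

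The deposited trimmed means were 123.55, 149.98 and 139.64 before, during and after fusion, and 56.8%, 65.6% and 61.4% of the 45037 probe sets left after removing controls exceeded the floor. Of 10 epithelial markers, 7 were over 2-fold higher after than before fusion and 0 were lower, and their summed signal was 11919 before, 22907 during and 31156 after fusion. Of 10 palatal mesenchyme markers, 0 were higher and 5 were lower, among them *Osr2* and *Prrx1*, whereas their sum was 22583, 17862 and 21187. Bright genes weigh most in such a sum, here *Col3a1* (8059.4, 6630.3 and 9224.5) and *Vim* (5890.2, 5488.5 and 8538.1). The median log2 ratio of the 10 after over before fusion was −1.05, with 7 below 1 and 3 above. All 4 osteoblast markers with a probe set of their own (sum 1409.6, 5249 and 13820), 7 of 7 macrophage markers (573.29, 1083.5 and 2248.8) and 4 of 4 markers of ciliated cells (108.35, 1953.5 and 11349) were higher after than before fusion. Of 5 skeletal muscle markers with a ratio 4 were lower (sum 357.82, 99.085 and 55.526), as were 3 of 4 cartilage markers (1222.4, 558.88 and 595.21), 2 of 3 erythroid markers (14529, 9784.1 and 1922.3) and 1 of 5 endothelial markers (791.33, 408.28 and 440.27). All 5 endothelial markers lay below 1. Of 4 neuronal markers 2 were higher and 0 lower (453.01, 366.95 and 698.37). In such bulk tissue, fewer cells of a type and less RNA per cell cannot be told apart, and the part of these shifts in the ratios below was not tested.

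Of the 37 genes, 21 lay above the floor on all 3 arrays, 10 on 1 or 2 arrays and 6 on none (*Fgf5*, *Fgf6*, *Fgf8*, *Fgf15*, *Fgf23* and *Etv4*). During fusion, 3 of the 25 genes with a ratio were over 2-fold higher than before fusion (*Fgf21*, *Fgf7*, *Fgfr3*) and 2 were lower (*Fgf17*, *Spry4*). Among all 13202 genes with a ratio, 5.76% were higher and 3.36% lower. After fusion, 4 of 26 were higher than before it (*Fgf21*, *Fgfr3*, *Fgf7*, *Fgf1*) and 5 were lower (*Spred3*, *Dusp6*, *Fgf9*, *Etv5*, *Fgf17*), against 12.9% higher and 9.87% lower among all 13586 genes. From during to after fusion 2 of 26 were higher (*Fgf1*, *Fgf2*) and 0 lower, against 8.83% and 5.13% of 14178 genes. The 3 comparisons share arrays and are not independent of each other. In all, 11 genes of the set passed 2-fold in at least 1 comparison and 26 in none.

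The median log2 ratio of the set was −0.21 during over before, −0.43 after over before and −0.12 after over during fusion, beside −0.02, −0.07 and −0.04 over all genes. Of the 21 genes above the floor on every array, 12 were brightest before fusion (57.1%, against 41.7% of 11828 genes) and 9 were lower at each later stage (42.9%, against 30.5%). A further 4 were higher at each later stage, 5 were highest during and 3 lowest during fusion.

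**Figure D1:**
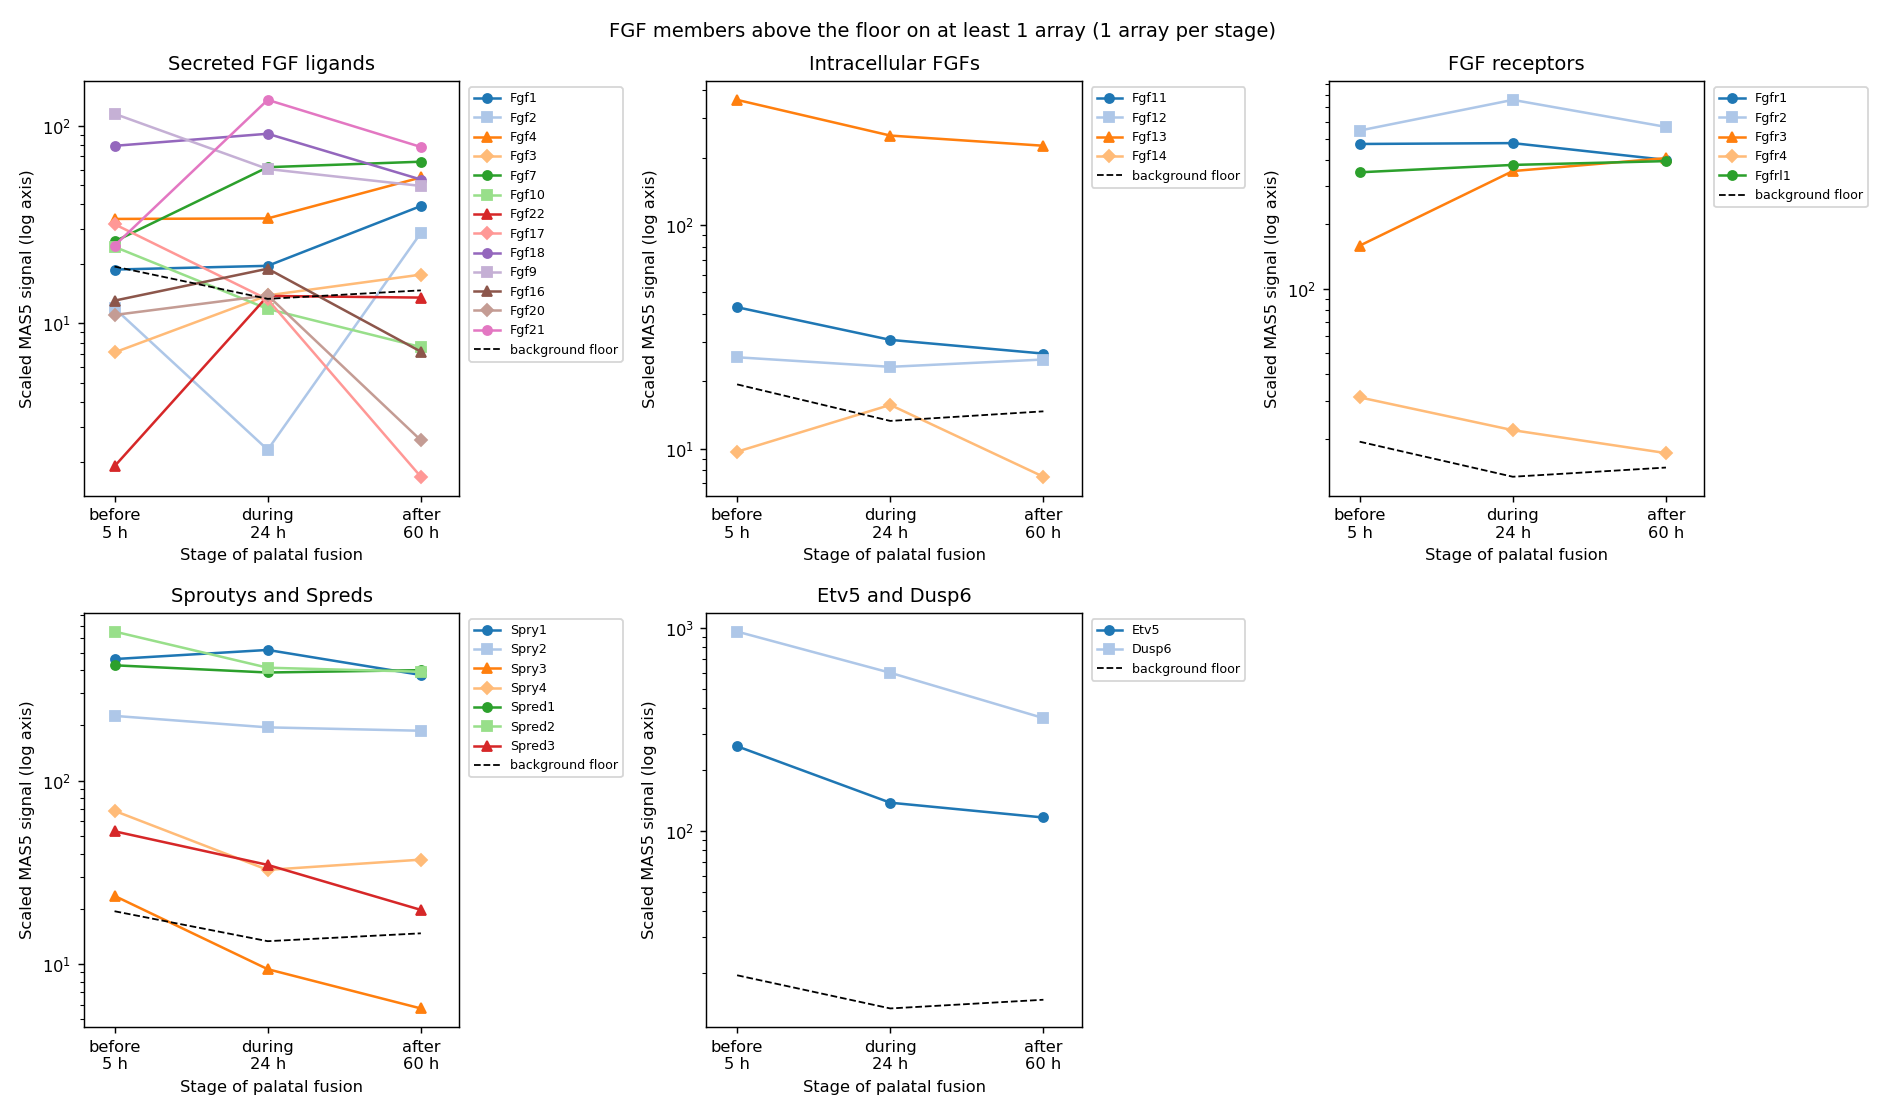
Scaled MAS5 signal (log axis) of each gene of the set above the floor on at least 1 array, at the 3 stages, 1 array per stage, with the background floor as a dashed line. Each line is 1 gene; *Dusp6* and *Etv5* descend from stage to stage, *Fgfr3* ascends, and many of the secreted ligands lie near the floor.

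The windows around the transcription start are shown for 3 genes past 2-fold: *Fgf21*, which had the highest ratio of the set, and the feedback genes *Dusp6* and *Etv5*, both lower after fusion. Each runs from 250 bases before to 50 bases after the annotated start on the gene's strand (RefSeq, GRCm38.p6), and capitals mark matches to the motifs searched. The *Fgf21* window is chr7:45615441-45615740 (minus strand), the *Dusp6* window is chr10:99262981-99263280 (plus strand), and the *Etv5* window is chr16:22439521-22439820 (minus strand), 1 of the start sites listed for that gene.
Fgf21: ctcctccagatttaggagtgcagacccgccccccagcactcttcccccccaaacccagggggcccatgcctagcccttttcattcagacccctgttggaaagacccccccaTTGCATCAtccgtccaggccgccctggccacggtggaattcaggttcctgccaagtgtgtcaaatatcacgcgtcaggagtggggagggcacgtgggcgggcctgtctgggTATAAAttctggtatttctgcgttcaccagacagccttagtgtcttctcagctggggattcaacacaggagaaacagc
Dusp6: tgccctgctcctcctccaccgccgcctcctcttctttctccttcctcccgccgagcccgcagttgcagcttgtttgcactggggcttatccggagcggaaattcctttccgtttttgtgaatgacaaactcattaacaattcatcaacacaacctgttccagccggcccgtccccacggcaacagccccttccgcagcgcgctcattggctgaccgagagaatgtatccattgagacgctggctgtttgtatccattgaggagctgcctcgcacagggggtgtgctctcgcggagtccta
Etv5: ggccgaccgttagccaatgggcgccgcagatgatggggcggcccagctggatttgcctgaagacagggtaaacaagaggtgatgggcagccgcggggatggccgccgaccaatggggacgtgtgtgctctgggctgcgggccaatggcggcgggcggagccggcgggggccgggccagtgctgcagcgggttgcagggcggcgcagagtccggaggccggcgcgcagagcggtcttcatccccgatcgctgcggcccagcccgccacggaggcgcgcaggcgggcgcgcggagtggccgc
Both strands of the windows were searched for CCGGAAG, an extended form of ETS binding sites. Shorter or other forms of that site were not searched. The amino acid response element was searched as TGATGNAA. The box bound by the general transcription machinery was searched as TATAAA. Of the set, 27 genes had a window. In the *Fgf21* window TGATGNAA was matched on the reverse strand, starting 139 bases upstream of the start site, and TATAAA 28 bases upstream. Over all 32544 windows TGATGNAA occurred in 3.91%, TATAAA in 13.6% and CCGGAAG in 8.91%. Within the set, *Fgf21* alone held TGATGNAA, *Fgf21*, *Fgf5* and *Fgf13* held TATAAA, and *Fgfrl1* alone held CCGGAAG. The TATAAA matches of *Fgf5* and *Fgf13* lay 34 and 37 bases downstream of the start site, and only that of *Fgf21* lay upstream. The *Etv5* window was 74.0% G or C with 37 CG pairs and the *Fgf21* window 58.0% with 9, against a median of 53.0% and 7 over all windows.

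The 10 feedback and ETS genes had a median log2 ratio of −0.66 during and −0.73 after fusion, both against before fusion, over the 9 with a ratio. After fusion 9 of the 9 genes with a ratio lay below 1, except that *Spred1* lay above 1 with the signals as deposited, and 3 passed 2-fold. Of all 13586 genes 7316 lay below 1, and 9.87% were over 2-fold lower. During fusion 8 of 9 lay below 1, beside 6763 of 13202 genes, and 1 was over 2-fold lower, against 3.36% of all genes. The signs of *Spry1*, *Spry2* and *Spred1* during fusion depended on the scaling. From during to after fusion the group's median was −0.16, and 6 of 8 lay below 1, beside 7497 of 14178 genes. In that comparison 0 passed 2-fold, against 8.83% higher and 5.13% lower among all genes.

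*Dusp6* (chr10:99263231-99267489) had signals of 956 before, 599 during and 358 after fusion. It was lower than before fusion by 1.60-fold during and 2.67-fold after fusion, and its after over before ratio ranked 443 from the bottom of the 11992 genes with both signals above the floor. The gene is measured by 1 probe set, so its ratio has no spread of its own. It stayed over 2-fold lower after fusion in each of 12 alternative settings, with folds of 2.36 to 3.46.

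*Etv5* (chr16:22381313-22439570), a transcription factor of the Pea3 group, gave 260 before, 137 during and 116 after fusion. It was lower than before fusion by 1.90-fold during and 2.24-fold after fusion. Its 3 probe sets differed little, from 1.90- to 2.22-fold lower during and from 2.20- to 2.24-fold lower after fusion. With the signals as deposited the fold after fusion was 1.98. The other factors of that group could be followed less well: *Etv4* was under the floor at each stage, and the probe sets of *Etv1* also name the predicted gene *Gm5454*. The brightest of these shared probe sets gave 157, 59.6 and 44.5, which is lower by 2.64-fold during and by 3.53-fold after fusion. The second gave 74.8, 28.4 and 28.6, 2.62-fold lower after fusion, and the third lay under the floor.

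*Spry1* gave 461 before, 517 during and 377 after fusion, and *Spry2* gave 226, 195 and 187. Their log2 ratios after over before fusion were −0.29 and −0.27, which is within the spread between probe sets. *Spry4* behaved otherwise, with 68.4, 32.6 and 37.1, and was lower than before fusion by 2.10-fold during and 1.85-fold after fusion. Of its 4 probe sets, 3 gave a ratio during over before fusion, and these were 1.76- to 2.10-fold lower. Its call during fusion was lost as deposited (1.73), with the hybridization controls (1.94), with the floor added (1.74) and by the median of its probe sets (1.83). *Spry3* was above the floor before fusion alone, at 23.5, and was at least 1.77-fold lower during and at least 1.60-fold lower after fusion. During over before fusion its log2 ratio was −0.82, but −0.57 with one common floor and −0.64 with the floor added. With the floor set to the median of each array *Spry3* had no ratio.

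The Spreds hold back Raf activation. *Spred1* gave 426, 389 and 401 with its brightest probe set, a log2 ratio after over before of −0.09. The next brightest gave 375, 257 and 234, which is 1.60-fold lower after fusion, and 5 of the 6 probe sets with a ratio lay below 1. *Spred2* gave 651, 413 and 393 and was lower than before fusion by 1.57-fold during and 1.66-fold after fusion. *Spred3* (chr7:29157783-29170070) was dim, with 52.9, 34.7 and 19.7, and was 2.68-fold lower after fusion. That call was lost with the floor set to the median of each array (1.97-fold) or with the floor added to both signals (1.94-fold). *Dusp6*, *Etv5* and *Spred3* were lower at each later stage under all 7 scalings, and *Spred2* and *Spry2* under the scaling used here but not with one median, nor, for *Spry2*, with the signals as deposited.

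**Figure D2:**
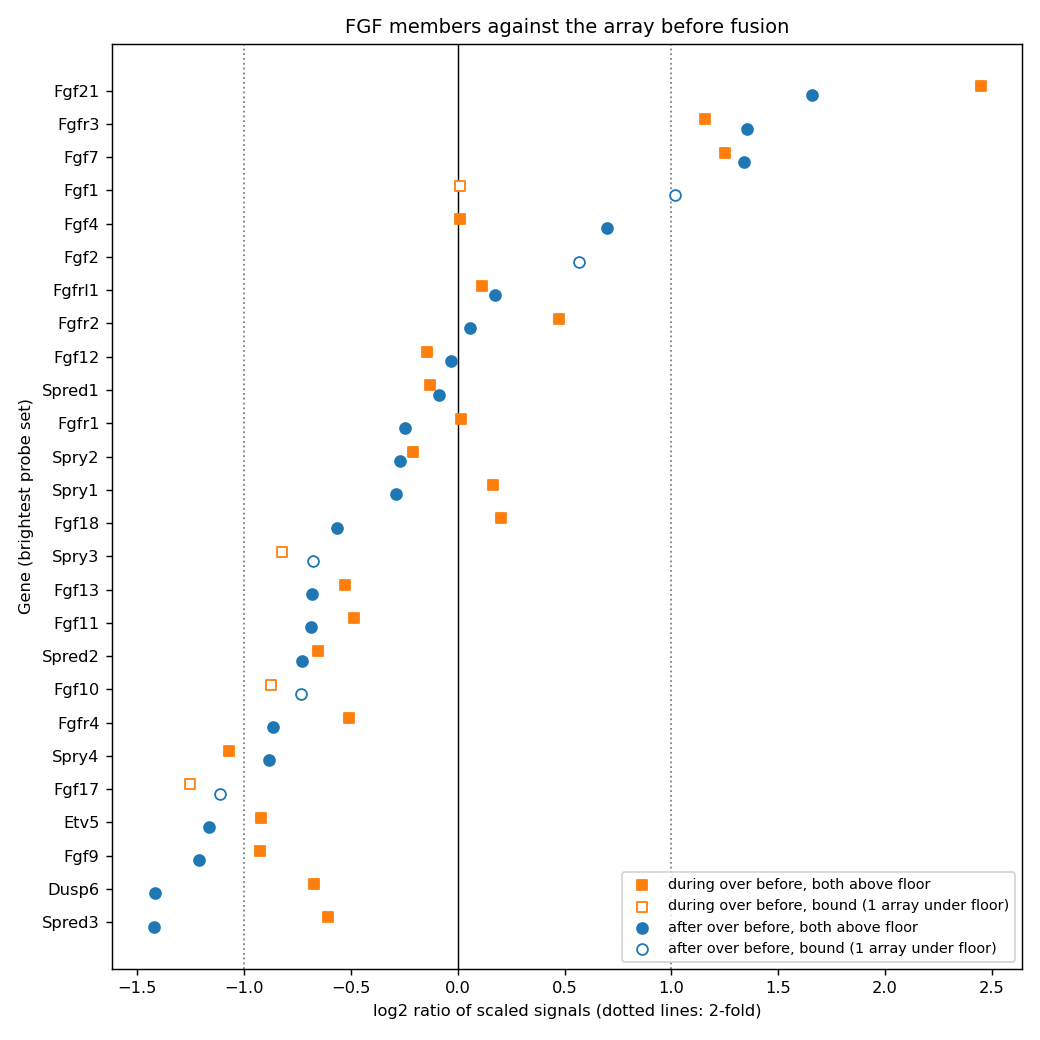
Log2 ratio of the scaled signal during (squares) and after (circles) fusion over the signal before fusion for each gene of the set with a ratio, ordered by the ratio after fusion; open symbols are bounds and dotted lines mark 2-fold. *Fgf21* lies farthest to the right with 2.45 during and 1.66 after fusion, and *Spred3* and *Dusp6* farthest to the left at −1.42 after fusion.

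Among the receptors, 1 of 5 was over 2-fold higher than before fusion at both later stages and 0 were lower. Of all genes, 5.76% were higher and 3.36% lower during fusion, and 12.9% and 9.87% after it. *Fgfr3* (chr5:33721724-33737068), which restrains bone growth and is also expressed in epithelia, gave 159 before, 354 during and 406 after fusion. It was 2.23-fold higher during and 2.56-fold higher after than before fusion by its brightest probe set. The other probe set gave 43.4, 61.3 and 64.6, which is 1.41- and 1.49-fold higher, and by the median of both the gene did not pass 2-fold at either stage (1.77 and 1.95). Scaling to the poly-A controls without Trpn also ended both calls (1.84 and 1.97), and scaling to all poly-A controls ended that during fusion (1.96). The osteoblast and epithelial marker sums were higher and the cartilage marker sum was lower at the same stages, and their part in the *Fgfr3* ratio was not tested.

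*Fgfr1*, a receptor found widely in mesenchyme, gave 473, 478 and 399. *Fgfrl1*, which binds FGFs but has no kinase domain, gave 349, 378 and 394. *Fgfr4* gave 31.2, 21.9 and 17.2, near the floor, a log2 ratio of −0.51 during and −0.86 after fusion. Its 3 probe sets with a ratio differed in direction, with ratios after over before fusion from 0.55 to 1.08. None of these receptors passed 2-fold.

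*Fgfr2* gave 546 before, 759 during and 568 after fusion with its brightest probe set, log2 ratios of 0.48 and 0.06. The 2 other probe sets gave 339, 416 and 440, and 23.5, 57.9 and 73.6. The dimmest of the 3 was thus 2.46-fold higher during and 3.13-fold higher after fusion, while the brightest was 1.39- and 1.04-fold higher. The probe sets of *Fgfr2* were not assigned to the epithelial IIIb or the mesenchymal IIIc form here. The median log2 ratio of the 5 receptors was 0.11 during and 0.06 after over before fusion.

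**Figure D3:**
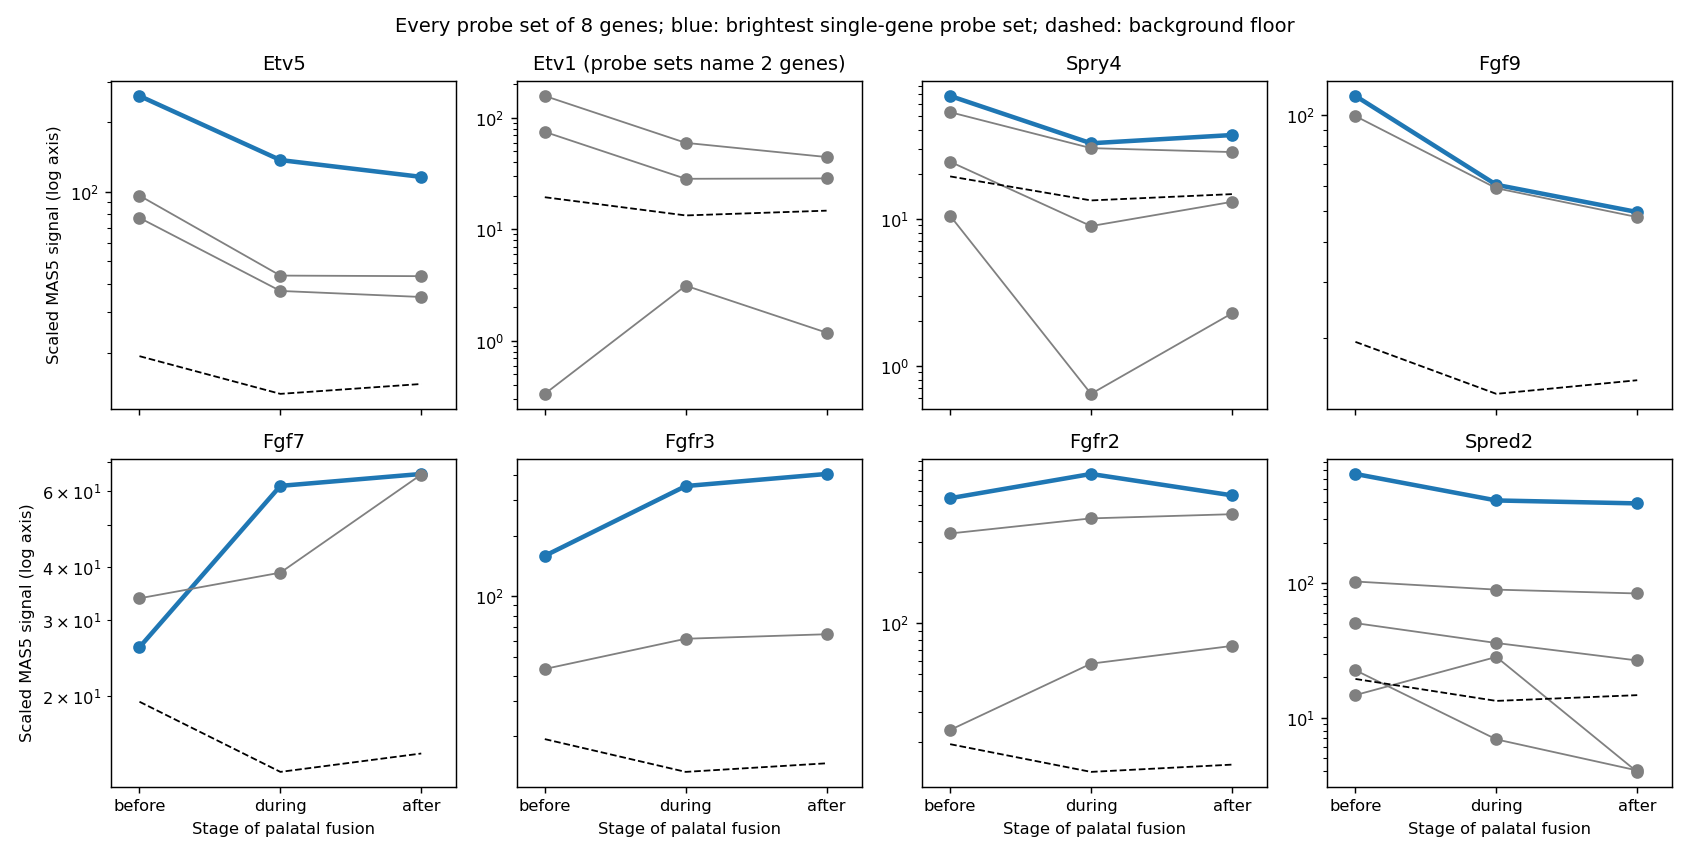
Scaled MAS5 signal (log axis) of every probe set of 8 genes at the 3 stages, with the brightest single-gene probe set in blue, the others in grey and the background floor dashed. The 3 probe sets of *Etv5* run in parallel, whereas those of *Fgfr2*, *Fgfr3* and *Fgf7* differ in slope; those of *Etv1* name 2 genes.

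Most secreted ligands were dim. *Fgf7* (chr2:126034658-126091185), a mesenchymal ligand that acts on the epithelial form of FGFR2, gave 26.0 before, 61.7 during and 65.8 after fusion. It was 2.38-fold higher during and 2.53-fold higher after than before fusion. Its second probe set gave 33.8, 38.8 and 65.6, which is 1.15- and 1.94-fold higher, so the probe sets differ on the stage at which the signal was higher. By their median the gene was 1.65-fold higher during fusion. With the floor added to both signals, or scaled to the poly-A controls without Trpn, it passed 2-fold at neither stage (1.86 and 1.96 during, 1.95 after fusion in both).

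Each of the other ligands of the *Fgf7* subfamily lay under the floor on at least 1 array. *Fgf10*, the mesenchymal ligand tied to palatal growth, gave 24.4 before, 11.8 during and 7.59 after fusion, and was above the floor before fusion alone. It was at least 1.83-fold lower during and at least 1.66-fold lower after fusion. These bounds depend on the floor, which lay close to its signal before fusion. During over before fusion its log2 ratio was −0.87, but −0.63 with one common floor and −0.54 with the floor added. With the floor set to the median of each array *Fgf10* had no ratio. *Fgf3* gave 7.13, 13.9 and 17.7, and *Fgf22* gave 1.89, 13.8 and 13.5, neither of them over 2-fold after the floor was applied.

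*Fgf9* (chr14:58070671-58112854), an epithelial ligand that signals to mesenchyme in several organs, gave 115 before, 60.4 during and 49.6 after fusion. It was lower than before fusion by 1.90-fold during and 2.32-fold after fusion. Its second probe set gave 99.3, 59.0 and 47.8, so both were lower at each later stage. With the floor added to both signals the fold after fusion was 2.00, just short of the threshold. *Fgf16* and *Fgf20*, of the same subfamily, were above the floor during fusion alone, at 18.9 and 13.9. The epithelial marker sum was higher after than before fusion, and 9 of 10 epithelial markers lay above 1. The remaining marker, *Trp63*, gave 544, 374 and 334. The part of epithelial content in the *Fgf9* ratio was not tested.

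*Fgf17* (chr14:70636203-70642268), of the *Fgf8* subfamily, gave 31.8, 13.2 and 1.68, above the floor before fusion alone. It was at least 2.39-fold lower during and at least 2.16-fold lower after fusion. These bounds rest on a dim probe set: with the floor set to the median of each array they came to 1.07 and 1.18, and with the signals as deposited to 1.97 and 1.91. *Fgf18*, which acts on growing bone and cartilage, gave 79.1, 91.1 and 53.5, a log2 ratio of 0.20 during and −0.57 after over before fusion. *Fgf8* was under the floor at each stage.

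*Fgf1*, which binds every FGF receptor, gave 18.7 before, 19.6 during and 39.3 after fusion. It was at least 2.02-fold higher after than before and 2.01-fold higher after than during fusion, and its second probe set gave 18.9, 31.7 and 24.4. The median over probe sets was 1.59-fold after over before and 1.24-fold after over during fusion, and 6 of 12 alternative settings ended the first call and 7 the second. *Fgf2* was above the floor after fusion alone, with 11.9, 2.30 and 28.7, and was at least 2.16-fold higher after than during fusion, a bound that came to 1.92 with the hybridization controls and 1.82 with one common floor. With the floor set to the median of each array *Fgf2* had no ratio. *Fgf4* gave 33.8, 34.0 and 54.7, a log2 ratio of 0.70 after over before fusion. Of its 4 probe sets 1 gave a ratio, and the others lay under the floor at each stage.

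*Fgf21* (chr7:45613890-45615490) is an endocrine FGF that in the adult mouse comes mainly from liver and is induced by fasting and by cellular stress. Its signal was 24.7 before, 135 during and 78.1 after fusion. It was 5.46-fold higher during and 3.16-fold higher after than before fusion, and its ratio during fusion ranked 52 from the top of 12117 genes with both signals above the floor. From during to after fusion its log2 ratio was −0.79. Its signal before fusion lay close to the floor of 19.4. *Fgf21* has 1 probe set, and both calls held in each of 12 alternative settings. Folds of *Fgf21* there ran from 3.72 to 6.63 during and from 2.32 to 3.57 after fusion. *Klb*, the gene of its coreceptor β-Klotho, gave 6.80, 2.57 and 0.69, and *Kl* gave 8.92, 5.51 and 6.41, all under the floor.

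The intracellular FGFs are not secreted, and bind voltage-gated sodium channels in neurons. *Fgf13* gave 363, 251 and 226, a log2 ratio of −0.53 during and −0.68 after over before fusion. *Fgf11* gave 42.9, 30.7 and 26.6, and *Fgf12* gave 25.6, 23.2 and 25.1. *Fgf14* was above the floor during fusion alone, at 15.7. None passed 2-fold, and the median of the 3 with a ratio after over before fusion was −0.68.

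**Figure D4:**
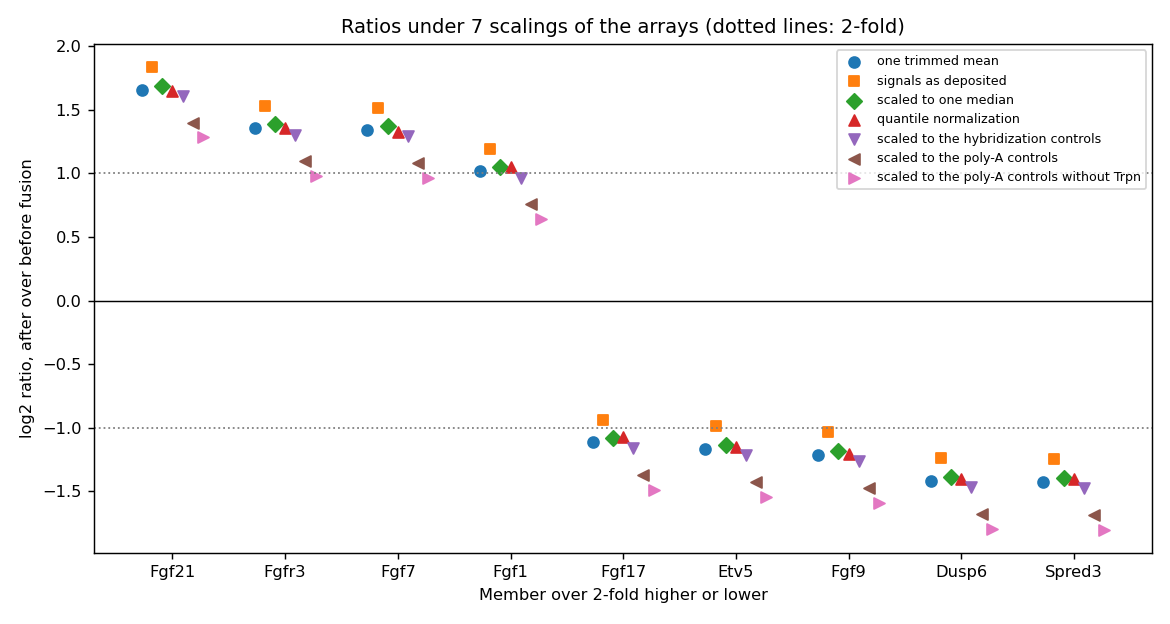
Log2 ratio after over before fusion of the 9 genes of the set that passed 2-fold, under each of 7 scalings of the arrays, with dotted lines at 2-fold. All 9 keep their direction under each scaling; *Dusp6*, *Spred3*, *Fgf9* and *Fgf21* also stay past 2-fold under each.

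The rest of the pathway was compared with lists of known components. Of 26 adaptors and members of the Ras-ERK core, 19 had a probe set of their own, and their median log2 ratio was −0.15 during and −0.22 after over before fusion. During fusion 0 passed 2-fold, against 5.76% higher and 3.36% lower among all genes. After fusion *Frs3*, an adaptor related to *Frs2*, was 2.03-fold higher, with 52.1, 72.6 and 106, and 0 were lower. Among all genes 12.9% were higher and 9.87% lower. The fold of *Frs3* fell under 2 in 5 alternative settings, the lowest of them 1.56 with the poly-A controls without Trpn.

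Coreceptors and membrane modulators gave 8 ratios. *Fgfbp1*, whose product releases FGFs from the matrix, gave 148 before, 1230 during and 1031 after fusion and was 8.31- and 6.97-fold higher. *Il17rd*, an inhibitor of FGF signaling also known as Sef, gave 275, 129 and 129 and was 2.12- and 2.14-fold lower by its brightest probe set, but 1.35-fold lower after fusion by the median of its probe sets. *Flrt2*, a membrane protein with leucine-rich repeats, gave 982, 462 and 385, 2.13- and 2.55-fold lower. Its relative *Flrt3* gave 455, 292 and 231, 1.97-fold lower after fusion. With the signals as deposited, *Il17rd* and *Flrt2* did not pass 2-fold during fusion (1.75-fold for both), nor did *Il17rd* after it (1.89-fold). Both calls during fusion were also lost with the hybridization controls (1.96-fold for both) and by the median of the probe sets (1.92-fold for *Il17rd*, 1.80-fold for *Flrt2*).

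Genes of heparan sulfate synthesis and its core proteins had a median log2 ratio of −0.26 during and −0.38 after over before fusion. Of 23 with a ratio after fusion, 1 was over 2-fold higher and 4 were lower, beside the 12.9% and 9.87% of all genes. *Sdc4*, a membrane core protein, gave 667, 1066 and 1774 and was 2.66-fold higher, or 1.91-fold by its brightest unmarked probe set. *Gpc6*, a glypican, gave 1125, 520 and 441 and was 2.55-fold lower. *Sulf1*, which trims sulfate groups off heparan sulfate, gave 766, 443 and 358 and was 2.14-fold lower. *Gpc2* was at least 2.43-fold lower (1.33-fold with the floor at the median) and *Ndst2*, a sulfotransferase, 2.01-fold lower. With the signals as deposited *Sulf1* (1.89) and *Ndst2* (1.78) did not pass 2-fold. The call of *Ndst2* was also lost when scaled to one median (1.96) and with the floor added (1.88).

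Other ERK phosphatases and early target genes formed the last list. Their median log2 ratio was 0.04 during and 0.32 after over before fusion, and 5 of 14 were over 2-fold higher after fusion and 2 lower, against 12.9% and 9.87% of all genes. The immediate-early gene *Fos* gave 74.7 before, 425 during and 1911 after fusion and was 5.69- and 25.6-fold higher. *Egr1*, of the same class, gave 263, 932 and 1818, and *Ier3* gave 154, 737 and 980. The phosphatase genes *Dusp14* (126, 193 and 789) and *Dusp1* (174, 260 and 488) were 6.25- and 2.80-fold higher after fusion. *Dusp9*, another ERK phosphatase gene, gave 55.2, 32.9 and 24.9 and was 2.22-fold lower, and *Phlda1* gave 1336, 1038 and 596 and was 2.24-fold lower. With the signals as deposited these folds were 1.96 and 1.98, and with the floor added that of *Dusp9* was 1.75.

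**Figure D5:**
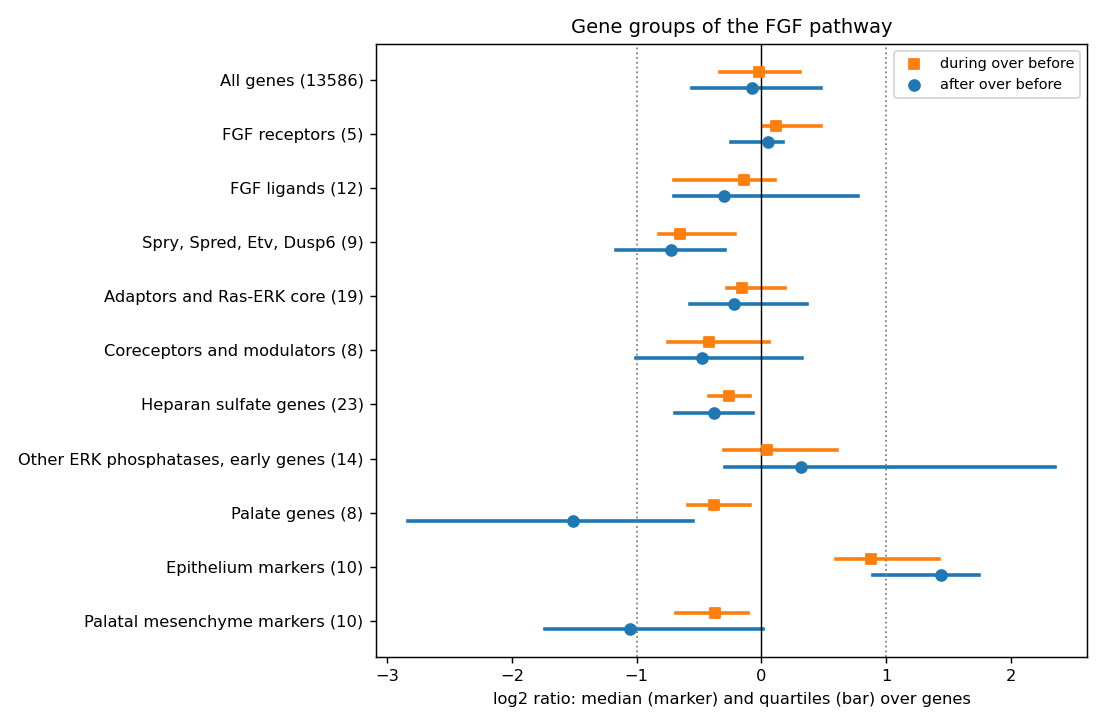
Median (marker) and quartiles (bar) over genes of the log2 ratio during (squares) and after (circles) over before fusion, for all genes, the groups of the FGF set, the other pathway lists and 2 marker lists; the number of genes with a ratio after fusion stands in parentheses. The Spry, Spred, Etv and *Dusp6* group has its median at −0.66 and −0.73, the receptors lie at 0.11 and 0.06, and the epithelial markers lie at 0.88 and 1.44.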

How the data were processed

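Background was corrected by the authors with the MAS5 algorithm in GeneChip Operating Software, and the deposited intensity values hold 1 linear signal per probe set, with no scaling target named. Of 45101 probe sets, 64 are controls, 34945 name 1 gene, 932 several and 9160 none; 34741 were matched to GRCm38.p6 genes through their Entrez ID. The extraction kit differs between labels (RNeasy) and methods (Trizol).

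The arrays were brought to a common trimmed mean, for which 2% of signals were dropped at either end. As floor served, on each array, percentile 95 of the signals of 81 sensory receptor probe sets. A gene took the values of its probe set of highest mean. The members, the pathway and marker lists (184 entries with the members), the rule for named genes (all members, and list genes past 2-fold or at the ends of a list) and the alternatives were chosen with earlier results of these data known. The number of arrays limits the precision, and no p-value is given. Ratios were computed in Python 3.11.15 with pandas 2.3.3 and numpy 2.4.6. The scaling, floor and ratio steps were tested on simulated data, with changes planted in brighter probe sets only. Changes near the floor, the choice of probe set, the list summaries and the motif search were not part of that test. Promoter windows came from RefSeq tables.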

Additional observations from a re-analysis of the deposited data

How the results depend on the processing

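No direction called at 2-fold turned under any of the 12 alternatives run for each gene, which were 6 other scalings, 4 other floors and 2 other choices of probe set. No paired analysis was possible because there is 1 array per stage. Over all genes, other scalings moved the median log2 ratio by −0.29 to 0.27 during over before, by −0.39 to 0.18 after over before and by −0.16 to 0.15 after over during fusion. The share of all 2-fold calls that were higher was 63.1%, 56.7% and 63.2% in these comparisons, and ran from 30.2% to 87.0%, from 28.0% to 70.8% and from 46.9% to 76.4% under other scalings. The sign of small ratios depended on the scaling for *Fgf4*, *Fgf18*, *Fgfr1*, *Spry1* and *Spry2* during over before fusion, for *Fgfr2* after over before fusion, for *Fgf7*, *Spred2* and *Spry2* after over during fusion, and for *Fgf12*, *Fgfrl1* and *Spred1* in all 3 comparisons. The cause of these dependences was not tested.

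During over before fusion, the 3 higher genes of the set became 1 with the poly-A controls without Trpn (an alternative chosen after seeing the data, since the Trpn signals were close to 0), 1 with the median over probe sets and 1 at 4-fold. The 2 lower genes became 0 as deposited, 4 with one median, 1 when scaled to hybridization controls, 6 when scaled to poly-A controls and also 6 without Trpn, 7 with no floor, 1 with the floor at the median, 0 with the floor added, 0 at 4-fold and 9 at 1.5-fold. The median of the set moved to −0.62 without Trpn and to 0.10 as deposited. After over before fusion, the 4 higher genes became 1 without Trpn, 7 with no floor, 2 with the floor added, 2 with the median over probe sets and 0 at 4-fold. The 5 lower genes became 3 as deposited, 12 without Trpn, 9 with no floor, 3 with the floor at the median, 3 with the floor added, 0 at 4-fold and 12 at 1.5-fold. After over during fusion, the 2 higher genes became 1 as deposited, 0 when scaled to hybridization controls, 1 when scaled to poly-A controls and 1 without Trpn, 0 with the floor at the median, 1 with one common floor, 1 with the floor added, 1 with the median over probe sets and 0 at 4-fold. The 0 lower genes became 6 with no floor and 4 at 1.5-fold.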

Other observations

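Of 8 genes known to act beside FGF signaling in the palate, 5 were over 2-fold lower after than before fusion and 1 was higher, against 9.87% and 12.9% of all genes, and their median log2 ratio was −1.51. *Shh*, the epithelial ligand downstream of FGF10 in the mouse palate, had signals of 1266 before, 943 during and 122 after fusion and was 10.3-fold lower. The mesenchymal transcription factor genes *Barx1* (2674, 834 and 389), *Tbx22* (226, 215 and 28.7) and *Msx1* (1013, 479 and 308) were 6.87-, 7.86- and 3.29-fold lower, and *Bmp4* (457, 344 and 185) was 2.48-fold lower. *Dlx5*, a factor of bone-forming cells, gave 102, 216 and 282 and was 2.76-fold higher. The epithelial marker sum was higher at the later stages and 5 of 10 mesenchyme markers, *Msx1* among them, were lower; the part of cell content in these ratios was not tested.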
